A study of Mus musculus with 6 samples.

Results

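Genes that let a cell detect nucleic acids in its cytosol were followed in mouse alveolar macrophages, which patrol the airspace of the lung. They were taken by symbol from the deposited expression table, with the older names for RIG-I (Ddx58), STING (Tmem173) and cGAS (Mb21d1). All 10 of 10 were found among the 10539 genes listed. They were kept apart by what they sense: 4 serve RNA sensing (Ddx58, Ifih1, Dhx58 and Mavs), 4 serve DNA sensing (Mb21d1, Ifi204, Zbp1 and Tmem173), and 2 are kinases that both arms use (Tbk1 and Ikbke). The cells came from lungs of C57BL/6 mice and overexpressed the transcription factor C/EBPβ in every library. The 3 libraries labelled CEBPb hold such cells, and the 3 labelled CEBPb-A hold such cells after an adenovirus carrying A20, a ubiquitin-editing enzyme known to restrain NF-κB signalling. Adenovirus is a DNA virus, so the vector itself carries a possible ligand of these sensors. The protocol speaks of adenovirus treatment of the cells in general. No source used here gives which virus the CEBPb cells received, how C/EBPβ was delivered, or the age and sex of the mice. The libraries are called replicates without mention of separate animals or cultures, so each p-value measures spread between libraries that may be technical.

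As background, RIG-I and MDA5 bind viral RNA through a helicase and a C-terminal domain and pass the signal through CARD domains to MAVS on the mitochondrial surface, while LGP2 lacks CARDs and modulates both. cGAS binds DNA and makes the cyclic dinucleotide cGAMP, which activates STING on the endoplasmic reticulum. Both arms meet at the kinases TBK1 and IKKε, which phosphorylate IRF3 and IRF7, the factors that switch on type I interferon genes. Interferon in turn induces several of the sensors themselves, RIG-I, MDA5, LGP2, ZBP1 and the mouse p204 protein among them.

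Values were FPKM (fragments scaled by gene length and library total), so levels of different genes are comparable per length, and depth is unknown. The library labelled CEBPb-A replicate 3 was far from the other 5: on the leading principal component, with 44.3% of the variance, it scored 25.65 and they scored −11.74 to −0.10. Fold changes were lower for longer transcripts across 9570 genes (Spearman rho −0.55, over genes, which are not replicates). Leaving out CEBPb-A replicate 3 gave a rho of −0.33. Tnfaip3, the mouse gene of A20, overlapped between the groups (8.77, 17.7 and 19.2 FPKM in CEBPb, 7.94, 15.5 and 7.32 in CEBPb-A), so its transcript shows no A20 delivery. Whether RNA from the vector would be counted under this gene was not tested, so these values do not settle whether A20 was delivered. Directions below are between libraries as labelled. All 18 alveolar macrophage markers were listed, led by Chil3, Ear2, Marco and Lpl. They summed to 8133 to 8911 FPKM in CEBPb and 8644 to 9645 in CEBPb-A. Without Chil3 the sums did not overlap, at 3734 to 3825 in CEBPb and 3942 to 4173 in CEBPb-A. Of the 18 markers, 13 had a positive log2 fold change and 5 a negative one. The groups did not overlap for 5 upward and 1 downward, against 7.89% and 8.86% of all genes. Of 14 lymphocyte markers 0 were listed. A gene that is not listed has no value here, so a missing marker does not show that its RNA was absent. The summed epithelial markers (6 of 14 listed, Sftpc and Epcam not among them) had 44.3 to 50.8 FPKM in CEBPb and 52.2, 46.8 and 84.8 in CEBPb-A replicates 1, 2 and 3, so the high value was that of replicate 3 alone. It lay mostly in Scgb1a1, at 59.4 FPKM in that library and 22.0 to 33.2 in the others. The remaining epithelial markers summed to 17.6 to 22.3 in CEBPb and 20.45 to 25.5 in CEBPb-A. The neutrophil markers (5 of 11 listed, without Mpo, Ly6g and S100a9) summed to 217 to 267 in CEBPb and 303 to 321 in CEBPb-A. That gap lay in S100a8, and the other 4 summed to 15.8 to 18.5 and 17.1 to 18.2. Summed markers of dendritic cells (4 of 11 listed, without Flt3 and Xcr1) were 87.1 to 110.5 and 66.9 to 87.2, nearly all from Bst2, which interferon also induces, with 2.05 to 3.12 and 1.91 to 2.87 for the rest. Stromal and endothelial markers (2 of 10 listed, Vwf and Pdgfra, without Pecam1 and Col1a1) were 8.30 to 9.18 and 6.32 to 7.96, and those of interstitial macrophages and monocytes (7 of 10 listed, without Ccr2) 11.1 to 12.5 and 10.5 to 11.2. Without Nr4a1 the interstitial macrophage and monocyte sums did not overlap, at 8.02 to 8.81 in CEBPb and 6.60 to 7.38 in CEBPb-A. Of the 4 genes of that list that were tested, 2 had a positive log2 fold change and 2 a negative one. The part of other cells in the results below was not tested.

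Lower means were found in both arms, none past the test. Mean FPKM in the libraries labelled CEBPb-A was 20.3% to 31.1% lower for Ddx58, Ifih1, Dhx58, Ifi204 and Zbp1, was 1.14 times the CEBPb mean for Tmem173, and was 1.60% to 11.2% lower for Mavs, Mb21d1, Tbk1 and Ikbke. None of the 10 passed the test (limma on log2(FPKM + 1), Benjamini-Hochberg over 9617 genes, threshold 0.05), where 0.052% of all genes did. At an unadjusted p under 0.05 there were 5 of 10, all lower in CEBPb-A, where 4.42% of all genes were lower at that level. The groups did not overlap for 2 of 10 members downward (Ddx58 and Ifi204), against 8.86% of all genes, and for 1 of 10 upward (Tmem173), against 7.89%. Of the 10 members 9 had a negative log2 fold change, against 53.4% of genes, and the median was −0.23 against −0.013 over all genes tested. In bulk RNA, fewer cells that express a gene and less RNA per cell cannot be told apart.

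**Figure D1:**
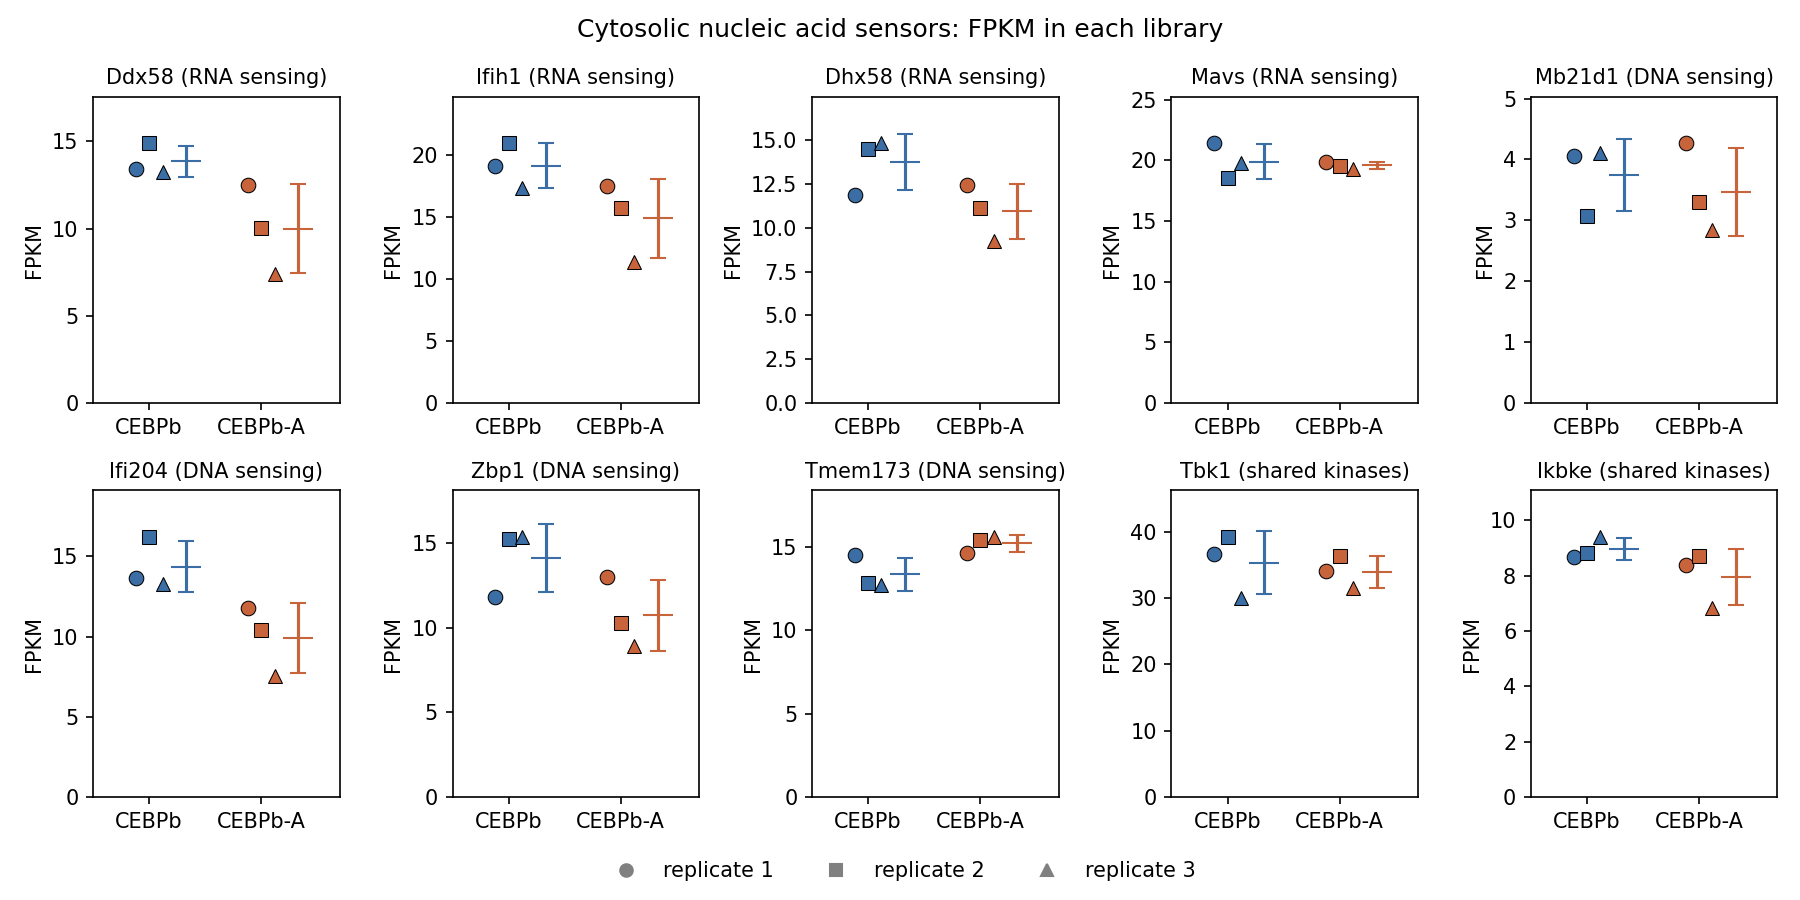
FPKM of each of the 10 genes in the 6 libraries, with the y axis starting at 0; points are libraries (shape gives the replicate number) and the bar beside them is the mean ± SD of 3. Ddx58 and Ifi204 sit lower in all 3 CEBPb-A libraries than in any CEBPb library, Tmem173 sits higher in all 3, and the other 7 genes overlap.

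Per length, Tbk1 was the most abundant of the family, with 30.02 to 39.2 FPKM over the 6 libraries and no overlap with any other member. Mavs came next (18.5 to 21.4), and from there to Ikbke (6.81 to 9.39) each gene's range overlapped that of its neighbour in the order Mavs, Ifih1, Tmem173, Zbp1, Dhx58, Ifi204, Ddx58, Ikbke. Mb21d1, the enzyme that starts the cGAMP signal, was the scarcest, at 2.85 to 4.27 FPKM and the 26.8th percentile of tested genes, below the range of all others. Its downstream partner Tmem173 lay at the 69.6th percentile and Tbk1 at the 87.4th.

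Of the RNA-sensing genes none passed the test. The means of the 3 receptors were lower in CEBPb-A, with groups that did not overlap for Ddx58 only, and the means of their adaptor differed by 1.60%. Ddx58, the gene of RIG-I (ENSMUSG00000040296.15, GRCm38 chromosome 4, 40203773 to 40239828, minus strand, 18 exons), had 13.4, 14.9 and 13.3 FPKM in CEBPb replicates 1, 2 and 3 and 12.5, 10.01 and 7.41 in CEBPb-A replicates 1, 2 and 3. Every CEBPb-A library lay below every CEBPb library, by a narrow margin for replicate 1 and by a wide one for replicate 3. The means were 13.9 ± 0.890 and 9.98 ± 2.55 FPKM (SD, n = 3 each), which differed by −0.46 on the log2 scale (SE 0.16, 95% interval −0.84 to −0.083, limma adjusted p = 0.588). Without CEBPb-A replicate 3 the log2 fold change was −0.28 (limma adjusted p = 0.894).

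Ifih1, the gene of MDA5, which recognises long double-stranded RNA (ENSMUSG00000026896.14, chromosome 2, 62595798 to 62646255, minus strand, 16 exons), had 19.1, 21.0 and 17.3 FPKM in CEBPb and 17.5, 15.8 and 11.4 in CEBPb-A. CEBPb-A replicate 1 lay just above the lowest CEBPb library, so the groups overlapped, and replicate 3 was again the lowest. The log2 fold change was −0.36 (SE 0.15, limma adjusted p = 0.588), and −0.19 without that replicate. Dhx58, the gene of LGP2 (ENSMUSG00000017830.15, chromosome 11, 100694884 to 100704271, minus strand, 13 exons), had 11.9, 14.5 and 14.8 FPKM in CEBPb and 12.4, 11.2 and 9.27 in CEBPb-A. Here CEBPb replicate 1 was as low as the upper CEBPb-A libraries, and the log2 fold change was −0.30 (SE 0.13, limma adjusted p = 0.588), and −0.20 without CEBPb-A replicate 3. An annotated antisense gene, Dhx58os, overlaps Dhx58. The sequencing was stranded, but no source used here says whether counting used the strand. Whether reads of the pair were kept apart is therefore unknown.

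Mavs, the adaptor on which RIG-I and MDA5 converge (ENSMUSG00000037523.13, chromosome 2, 131234063 to 131248025, plus strand, 7 exons), had 21.4, 18.5 and 19.8 FPKM in CEBPb and 19.9, 19.6 and 19.3 in CEBPb-A. The CEBPb-A values lay inside the CEBPb range, replicate 3 included. Its log2 fold change was −0.020 with a 95% interval of −0.20 to 0.16 (limma adjusted p = 0.935). The interval leaves room for a change of that size in either direction. Set against Mavs within the same library, Ddx58 stood at a ratio of 0.627, 0.803 and 0.671 in CEBPb and 0.630, 0.511 and 0.383 in CEBPb-A, so the ratio in CEBPb-A replicate 1 fell within the CEBPb range and the other 2 lay under it.

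Ddx58 and Ifih1 varied together across the 6 libraries (Pearson r 0.976, a description over libraries that share 1 outlying sample). The sequence around their starts is shown. RefSeq windows (GRCm38.p6, 250 bases before and 50 after the gene start) were held for 6 of the 10 members, Ddx58, Ifih1, Mavs, Mb21d1, Tbk1 and Ikbke. Pairs with a higher r were Dhx58 with Zbp1 (0.987), Ddx58 with Ifi204 (0.984) and Ifih1 with Ifi204 (0.979). Each of these pairs holds a gene without a window. The first line is the stretch before the Ddx58 start (chr4:40239826-40240075, minus strand), with capitals on a pair of GAAA repeats spaced by any 1 base (either strand), looked for after the sequence was seen. The other lines are bases 1 to 30 after the start of Ddx58 (chr4:40239796-40239825) and bases 21 to 50 after that of Ifih1 (chr2:62646206-62646235), both minus strand and counted from 1 at the start, with capitals on the core of the interferon-stimulated response element (GAAA, any 2 bases, GAAA, either strand).
Ddx58 before the start: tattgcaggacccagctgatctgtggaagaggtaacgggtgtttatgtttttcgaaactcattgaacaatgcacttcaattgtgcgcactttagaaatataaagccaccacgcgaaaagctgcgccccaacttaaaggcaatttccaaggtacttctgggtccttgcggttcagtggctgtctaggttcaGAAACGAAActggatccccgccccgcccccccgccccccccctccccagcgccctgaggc
Ddx58 bases 1 to 30: agTTTCGATTTCctatggccagccggctag
Ifih1 bases 21 to 50: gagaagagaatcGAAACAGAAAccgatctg

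The response element core occurred in the 50 bases after the start in 2 of the 6 member windows, Ddx58 (bases 3 to 12, on the opposite strand) and Ifih1 (bases 33 to 42), and in 0.408% of all 32851 windows. That stretch was searched after the sequences were seen. In the 250 bases before the start the same core was in 0 of 6 member windows and 2.98% of all windows, and the 1-base-spaced pair was in Ddx58 alone of the 6 and in 2.68% of all. A κB core (GGG, any 5 bases, CC, either strand) was found before the start of Mb21d1 and Tbk1, with overlapping matches on both strands in Mb21d1, and in 45.8% of all windows. A C/EBP core (TTGCNNAA, either strand) was in 0 of 6 and in 9.56% of all windows. These are letter matches and do not show binding.

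Of the DNA-sensing genes none passed the test. The groups did not overlap for Ifi204, with the lower mean in CEBPb-A, and for Tmem173, with the higher, and they overlapped for Zbp1 and Mb21d1. Ifi204 encodes p204, an interferon-inducible DNA-binding protein of the PYHIN family related to human IFI16 (ENSMUSG00000073489.6, chromosome 1, 173747293 to 173766943, minus strand, 9 exons). It had 13.6, 16.2 and 13.3 FPKM in CEBPb and 11.8, 10.4 and 7.52 in CEBPb-A, with every CEBPb-A library below every CEBPb library. Its log2 fold change was −0.51 (SE 0.16, 95% interval −0.87 to −0.15, limma adjusted p = 0.588), the most negative of the 10, and it was −0.34 without CEBPb-A replicate 3.

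The level of Ifi204 is uncertain, since its transcript shares sequence with neighbouring genes of the same family. Of its 2247 runs of 50 bases, 30.2% occurred in a transcript of another gene (GENCODE M21), 23.2% in Ifi211 alone, whereas the share was 0.725% for Mb21d1 and 0 for the other 8 members. The longest run identical to Ifi211 spans 306 bases, and its first 60 coding bases, from the start codon, show how alike they are.
Ifi204 and Ifi211: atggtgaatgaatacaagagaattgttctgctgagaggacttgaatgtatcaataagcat
The relatives had values of their own in the same direction: Ifi211 8.64, 10.3 and 9.37 FPKM in CEBPb against 8.49, 6.08 and 3.94 in CEBPb-A, Ifi203 5.78, 7.36 and 4.93 against 4.16, 4.27 and 2.53. For both genes the groups did not overlap, and neither passed (limma adjusted p = 0.588 for each). Ifi207, Mndal and Ifi209 had log2 fold changes of −0.52, −0.40 and −0.39, with overlapping groups (limma adjusted p = 0.589, 0.632 and 0.591). Ifi211, Ifi207, Mndal and Ifi209 were named as relatives of Ifi204 after their values were seen. No source used here says how reads common to these genes were divided.

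Zbp1 binds nucleic acid in the Z form, was first described as a DNA sensor and is also known to bind Z-RNA (ENSMUSG00000027514.14, chromosome 2, 173206612 to 173218923, minus strand, 8 exons). It had 11.8, 15.3 and 15.4 FPKM in CEBPb and 13.0, 10.3 and 8.91 in CEBPb-A. The groups overlapped through CEBPb replicate 1, the lowest of its group, as for Dhx58, and the log2 fold change was −0.37 (SE 0.15, limma adjusted p = 0.588), and −0.26 without CEBPb-A replicate 3. Across the 6 libraries Zbp1 tracked Dhx58 (Pearson r 0.987) more closely than Mb21d1 (0.475), as a description of 6 points.

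Tmem173, the gene of STING (ENSMUSG00000024349.9, chromosome 18, 35733678 to 35740554, minus strand, 8 exons), went the other way. It had 14.5, 12.8 and 12.7 FPKM in CEBPb and 14.6, 15.4 and 15.6 in CEBPb-A, so the lowest CEBPb-A library was just above the highest CEBPb library. The means were 13.3 ± 0.990 and 15.2 ± 0.506 FPKM (SD, n = 3 each) and the log2 fold change 0.18 (SE 0.082, 95% interval −0.011 to 0.37, limma adjusted p = 0.588). It was 0.16 without CEBPb-A replicate 3.

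Mb21d1, the gene of cGAS (ENSMUSG00000032344.17, chromosome 9, 78430526 to 78443237, minus strand, 5 exons), had 4.06, 3.07 and 4.11 FPKM in CEBPb and 4.27, 3.30 and 2.85 in CEBPb-A. The highest and the lowest of the 6 values were both in CEBPb-A. The log2 fold change was −0.090 (SE 0.15, 95% interval −0.43 to 0.25, limma adjusted p = 0.833) and turned to 0.013 without CEBPb-A replicate 3. A transcribed pseudogene, Gm8093, overlaps it on the opposite strand. The ratio of Ifi204 to Tmem173 in the same library was 0.941, 1.26 and 1.05 in CEBPb and 0.806, 0.674 and 0.483 in CEBPb-A, without overlap, whereas the ratio of Mb21d1 to Tmem173 overlapped (0.239 to 0.323 and 0.183 to 0.292).

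Of the kinases, Tbk1 overlapped between the groups and Ikbke had 1 low library. Tbk1, expressed in most cells (ENSMUSG00000020115.3, chromosome 10, 121546455 to 121586787, minus strand, 21 exons), had 36.7, 39.2 and 30.02 FPKM in CEBPb and 34.1, 36.3 and 31.5 in CEBPb-A. All 3 CEBPb-A values lay inside the CEBPb range, and replicate 3 was the lowest in both groups. The log2 fold change was −0.048 (95% interval −0.31 to 0.21, limma adjusted p = 0.887), and 0.0028 without CEBPb-A replicate 3. Ikbke, the inducible relative known as IKKε (ENSMUSG00000042349.13, chromosome 1, 131254343 to 131279606, minus strand, 22 exons), had 8.66, 8.83 and 9.39 FPKM in CEBPb and 8.36, 8.70 and 6.81 in CEBPb-A. Only CEBPb-A replicate 3 stood clearly below the others, and the log2 fold change was −0.16 (SE 0.10, limma adjusted p = 0.609), and −0.063 without it. The annotated antisense genes Gm28914 and Gm28913 overlap Ikbke. The ratio of Ikbke to Tbk1 was 0.258 ± 0.0478 in CEBPb and 0.234 ± 0.0156 in CEBPb-A (SD, n = 3 each), with overlap.

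**Figure D2:**
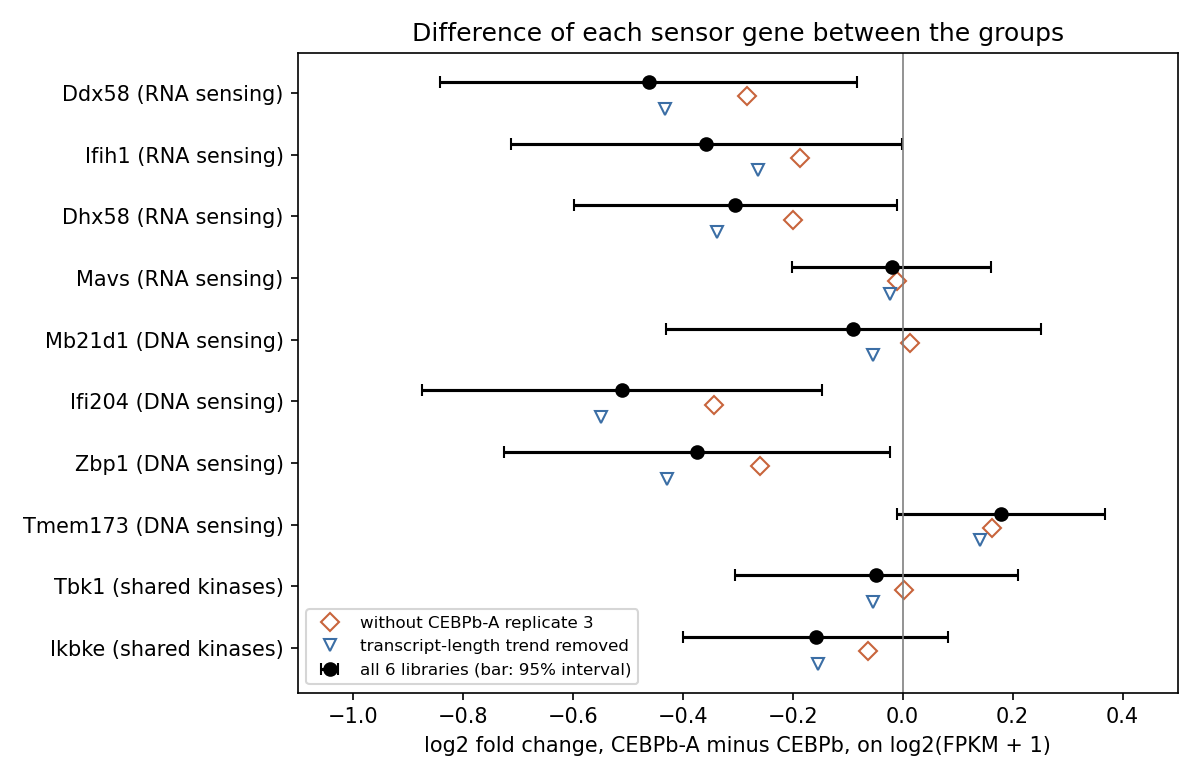
Log2 fold change (CEBPb-A minus CEBPb, on log2(FPKM + 1)) of each gene, with its 95% interval over all 6 libraries, the value without CEBPb-A replicate 3 and the value with the trend on transcript length removed. The intervals of Ddx58, Ifih1, Dhx58, Ifi204 and Zbp1 lie below 0 before adjustment, and the values without CEBPb-A replicate 3 are nearer to 0 for all 10 genes.

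Set side by side, the RNA-sensing members had a median log2 fold change of −0.33 (range −0.46 to −0.020) and the DNA-sensing members one of −0.23 (range −0.51 to 0.18). With the length trend removed the medians were −0.30 and −0.24, and Ddx58, Ifih1 and Ifi204 stood at −0.43, −0.26 and −0.55. The longest transcript of the family is that of Ifih1 (5470 bases), and its value moved most toward 0. Of the 10 members, 7 lay below the CEBPb mean in all 3 CEBPb-A libraries and 1, Tmem173, lay above it in all 3. Another 7 members, a set that differs by holding Mb21d1 in place of Mavs, had their lowest value of all 6 libraries in CEBPb-A replicate 3. The share of all genes with either pattern was not computed. Whether these counts are particular to the members was therefore not tested.

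The 3 CEBPb-A libraries differed among themselves in the sensors, and other interferon-induced genes differed among them in the same order. Relative to the CEBPb mean, the RNA-sensing members had a median log2 difference of −0.12, −0.27 and −0.61 in CEBPb-A replicates 1, 2 and 3, and the DNA-sensing members one of 0.011, −0.27 and −0.45. In a list of 35 interferon-induced effectors that leaves out the members, the medians were −0.093, −0.30 and −0.69, and −0.13, 0.15 and 0.00030 in CEBPb replicates 1, 2 and 3. CEBPb replicate 1 thus lay below CEBPb-A replicate 1 for the effectors. Of the 35 effectors 34 were negative (median −0.37), against 53.4% of all genes. For 14 the groups did not overlap downward, against 8.86% of all genes, and 0 passed. By p, the first were Oasl2 (−0.66), the tetherin gene Bst2 (−0.45), Parp12 (−0.33) and the ubiquitin-like modifier Isg15 (−0.42), each with limma adjusted p = 0.588. Endosomal receptors sense nucleic acids in another compartment. Their list also holds genes that are not receptors, such as the adaptor Ticam1 (0.091) and the kinase Irak4 (−0.074). It had a median of −0.024 over 12 genes, with 0 of 12 groups apart, so that median is not of receptors alone. Tlr3, the endosomal receptor of double-stranded RNA, had the smallest p of the list (4.33 ± 0.271 against 3.22 ± 1.29 FPKM, SD, n = 3 each, log2 fold change −0.39, limma adjusted p = 0.596).

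**Figure D3:**
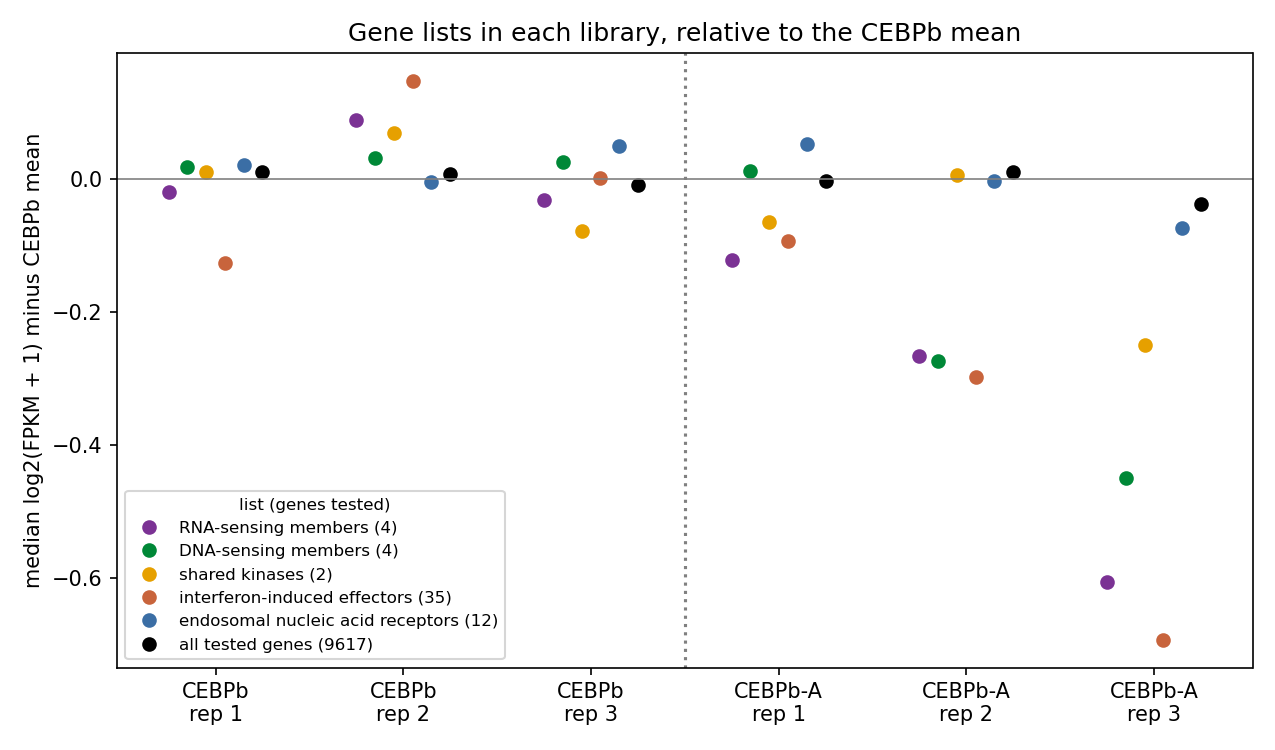
Median over each list's tested genes of log2(FPKM + 1) minus the CEBPb mean, in each library; colours are lists, with the number of genes tested in brackets. The RNA-sensing and DNA-sensing members and the interferon-induced effectors are lowest in CEBPb-A replicate 3 (−0.61, −0.45 and −0.69). All tested genes and the list of endosomal receptors, which also holds genes that are not receptors, stay between −0.074 and 0.051.

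Around the members, the pathway lists held no gene past the threshold. Counts of groups apart, here and in the next paragraph, stand beside 8.86% of all genes downward and 7.89% upward. Negative fold changes stand beside 53.4% of all genes. Among 31 cofactors and regulators of RNA sensing 24 were negative (median −0.070, 3 apart downward and 0 upward). The RNA editing enzyme Adar, which marks self RNA so that MDA5 does not see it, had 15.2 ± 0.716 FPKM in CEBPb and 11.6 ± 2.40 in CEBPb-A (SD, n = 3 each; log2 fold change −0.38). Nlrc5 stood at −0.39 and Traf3, the ubiquitin ligase that links MAVS to TBK1, at −0.54. Each of these 3 had limma adjusted p = 0.588. Among 30 cofactors and regulators of DNA sensing 21 were negative (median −0.025, 4 apart downward and 1 upward). Besides Ifi203, the smallest p were those of Usp18, an interferon-induced brake on interferon receptor signalling (6.69 ± 0.712 against 3.74 ± 1.92 FPKM, n = 3 each, log2 fold change −0.78), the STING-linked ligase Trim56 (−0.30) and Banf1, which coats cytosolic DNA and limits cGAS binding (0.25). All had limma adjusted p = 0.588. Aim2, the DNA sensor of an inflammasome, which like Ifi204 belongs to the PYHIN family, had 15.0, 16.1 and 9.68 FPKM in CEBPb and 14.5, 14.9 and 10.2 in CEBPb-A, with replicate 3 low in both groups and a log2 fold change of −0.027. It was named after its values were seen.

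The list drawn up for enzymes that remove nucleic acids before they are sensed lay on both sides of 0: of 15 genes, 9 were positive (median 0.015, 1 apart each way). The lysosomal exonuclease Pld4 had 93.0 ± 5.05 FPKM in CEBPb and 109 ± 4.51 in CEBPb-A (SD, n = 3 each, log2 fold change 0.22), and the ribonuclease H2 subunits Rnaseh2c and Rnaseh2b stood at 0.25 and 0.18. Tdrd7, which the list holds although it is not known as such an enzyme, stood at −0.24 (limma adjusted p from 0.588 to 0.589 for all of these). Of 19 adaptors of the kinases, IRF factors and necroptosis partners, 15 were negative (median −0.14, 4 apart downward and 2 upward). Mlkl, which executes the necroptosis that ZBP1 can start through RIPK3, had the smallest p of the list (8.10 ± 0.725 against 5.76 ± 0.462 FPKM, SD, n = 3 each, log2 fold change −0.43, limma adjusted p = 0.588). Irf7 stood at −0.43, the TBK1-degrading ligase Dtx4 at −0.20 and Irf8 at 0.21. Of 9 interferon receptors and transducers 8 were negative (median −0.19, 3 apart downward), among them the receptor chain Ifnar1 (10.8 ± 0.277 against 8.61 ± 1.13 FPKM, SD, n = 3 each, −0.30), Stat2 (−0.48) and Jak1 (−0.19), with limma adjusted p = 0.588 for each. Of receptors and scavengers linked to adenovirus uptake, 5 were tested and 0 had groups apart (median 0.035), with Marco at −0.11, Cd86 at 0.17, Itgb5 at 0.041 and Msr1 at 0.035.

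The genes whose levels over the 6 libraries were most like the mean of the RNA-sensing members were Usp18, Tbck, Znfx1, Tbc1d4 and Golgb1 (Pearson r 0.995 to 0.996 on log2 values). For the DNA-sensing members they included Zcchc6, Rfx5, Stat2 and Golgb1 (r 0.995 to 0.999). These were the best of 9617 genes, less the members, compared on 6 libraries, 1 of which stands apart, and the coefficients describe that ranking only. Tmem173 ran against Zbp1 (r −0.939) and Dhx58 (r −0.934), and Mavs was close to neither (r −0.158 and −0.147).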

How the data were processed

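RNA of 6 libraries was measured by stranded RNA sequencing (KAPA kit, 1 µg of total RNA, per the labels' protocols). The authors deposited 1 table of FPKM per gene and library, per the file headers. Per the submitters' processing notes the genome build was GRCm38; no source used here gives the aligner, the counting program or the annotation release. FPKM times transcript length showed no clear whole-read steps in the lowest 10% of single-transcript genes (periodicity 0.135 to 0.173, where 1 is perfect), so depth is unknown and no counting interval is given.

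The 9617 genes that averaged 1 FPKM or more were transformed to log2(FPKM + 1), where changes of low genes come out too small, and fitted with limma (version 3.58.1, R 4.3.3) with an intensity trend and no covariate, two-sided, Benjamini-Hochberg adjusted over all genes tested. Transcript lengths and shared runs come from GENCODE M21 (longest coding transcript). Members and gene lists were chosen with earlier results of these data known. Named genes are the members, up to 4 genes per pathway list by p, and the most abundant cell type markers. A few genes that this rule names are not reported here. Alternatives were a pseudocount of 0.1, no filter or a mean FPKM of at least 5, median-of-ratios scaling, quantile normalization, no trend, the replicate number as a block, the length trend removed, and each library left out.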

Additional observations from a re-analysis of the deposited data

How the results depend on the processing

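None of the 10 members passed under any of the 14 alternatives, and of 139 values of members under them 135 kept their direction. With single libraries left out, Mavs ran from −0.068 to 0.031 (turning without CEBPb replicate 1), Tbk1 from −0.16 to 0.030 (turning without CEBPb replicate 2 and, at 0.0028, without CEBPb-A replicate 3) and Mb21d1 from −0.21 to 0.013 (turning without CEBPb-A replicate 3). Adjusted p of Ddx58 ran from 0.372 to 0.894. The number of genes called, 5 as reported, was 0 at a mean FPKM of at least 5, 2 after quantile normalization, 1 with the replicate block, and 1 to 9 with single libraries left out; the cause was not tested. The median of the DNA-sensing members, −0.23 as reported, was −0.26 with a pseudocount of 0.1, −0.37 at a mean FPKM of at least 5 (which leaves out Mb21d1), −0.21 with median-of-ratios scaling, −0.19 after quantile normalization, −0.24 with the length trend removed, and −0.36 to −0.12 with single libraries left out. That of the RNA-sensing members ran from −0.44 without CEBPb-A replicate 1 to −0.19 without CEBPb-A replicate 3. Without CEBPb-A replicate 3, an alternative chosen after seeing the data, Ddx58 and Ifi204 were still apart downward and Tmem173 upward (2 and 1 of 10), against 11% and 11.2% of all genes. Same-numbered libraries deviated together with correlations of 0.099, 0.247 and 0.259; since the first is under 0.1 the numbers were not taken as pairs, although every library correlated best with its own number. With the replicate block 0 members passed. The unknown depth and 3 libraries per group limit all intervals.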
